A study of Rattus norvegicus with 12 samples.

Results

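The comparison described here sets the myocardium of rats 56 days after a coronary ligation against that of rats 14 days after it. It rests on 4 of the 12 arrays of the series, chosen by the time point in the labels, with 1 non-diabetic and 1 diabetic array on each day. All rats were male Sprague-Dawley rats, injected at 8 weeks of age with citrate buffer alone or with the beta cell toxin streptozotocin (65 mg/kg), which takes away most insulin production. They were kept for 10 weeks without control of blood glucose, and then the left anterior descending coronary artery was tied off in all but the sham groups. The tissue was the remote zone, that is left ventricular free wall muscle at a distance from the infarct, and each array held the pooled RNA of 3 rats. The other 8 arrays (a sham operation and days 1, 7 and 28, each with 1 array per treatment) entered the statistical fit only to estimate the spread. Levels on the sham arrays are given for reference with a doubt, since their tissue label speaks of an infarct while their protocol has a sham operation, at a labelled age of 18 weeks and with no time from operation to sampling. The non-diabetic and diabetic day 14 arrays carry an age of 20 weeks, the diabetic day 56 array 26 weeks and the non-diabetic day 56 array 22 weeks, which is the age given for the day 28 arrays. The protocol of the non-diabetic day 56 array places it at that day and was followed. Day 56 rats are older than day 14 rats, so time after ligation and age cannot be told apart, and neither can the streptozotocin itself and the diabetes it brings.

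After an infarct, dead muscle is replaced by scar, and the surviving muscle far from it is also invaded by macrophages and stiffened by new collagen. Monocytes and macrophages clear debris, present antigen on MHC class II molecules and signal to fibroblasts, which divide, become myofibroblasts and secrete and cross-link collagen. In the weeks that follow, inflammation subsides and matrix production slows, while the surviving cardiomyocytes enlarge and may return to a fetal pattern of gene use. In whole tissue, fewer cells of a type and less RNA per cell cannot be told apart.

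Values are deposited probe set intensities, used as log2(intensity + 16), so that an intensity of 0 would read 4 and differences of dim genes are understated. A gene is represented by its brightest probe set, and 10623 genes lay above a filter at 5.20 on this scale, averaged over all arrays. The median intensity of the 12 arrays was 28.8 to 34.7. On the actin control the 3' minus 5' difference, which grows with RNA degradation, was 0.51 and 0.48 (log2) on the non-diabetic and diabetic day 14 arrays and 0.41 and 0.37 on the day 56 arrays. It was 0.97 to 0.99 on days 1 and 7, and 0.59 and 0.38 on the non-diabetic and diabetic day 28 arrays. On the Gapdh control the same difference was 0.20 and 0.30 at day 14 and 0.29 and 0.11 at day 56, higher at day 56 in non-diabetic and lower in diabetic rats. The part of RNA quality in the results was not tested. The tissue read as heart muscle on all 4 arrays: the 21 adult contractile genes measured had mean levels of 11.74 to 12.16.

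The day 28 arrays, which lie between the compared days, did not lie together, and whether a label of theirs is wrong could not be settled. On all 3 RNA controls above, the non-diabetic day 28 array had the larger 3' minus 5' difference of the pair. The part of RNA quality in this split was not tested. The diabetic day 28 array correlated at 0.977 and 0.943 with the diabetic and non-diabetic day 56 arrays, and at 0.917 and 0.867 with those of day 14. The non-diabetic day 28 array correlated at 0.974 and 0.943 with the diabetic and non-diabetic day 14 arrays, and at 0.899 and 0.873 with those of day 56. The day 28 arrays correlated with each other at 0.898. These are Pearson correlations over probe sets within the same set of arrays and are given as a description. On the second principal component, with 21.6% of the variance, the day 14 arrays and the non-diabetic day 28 array took values of -54.2 to -26.3, and the day 56 arrays and the diabetic day 28 array 29.2 to 36.5.

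**Figure D1:**
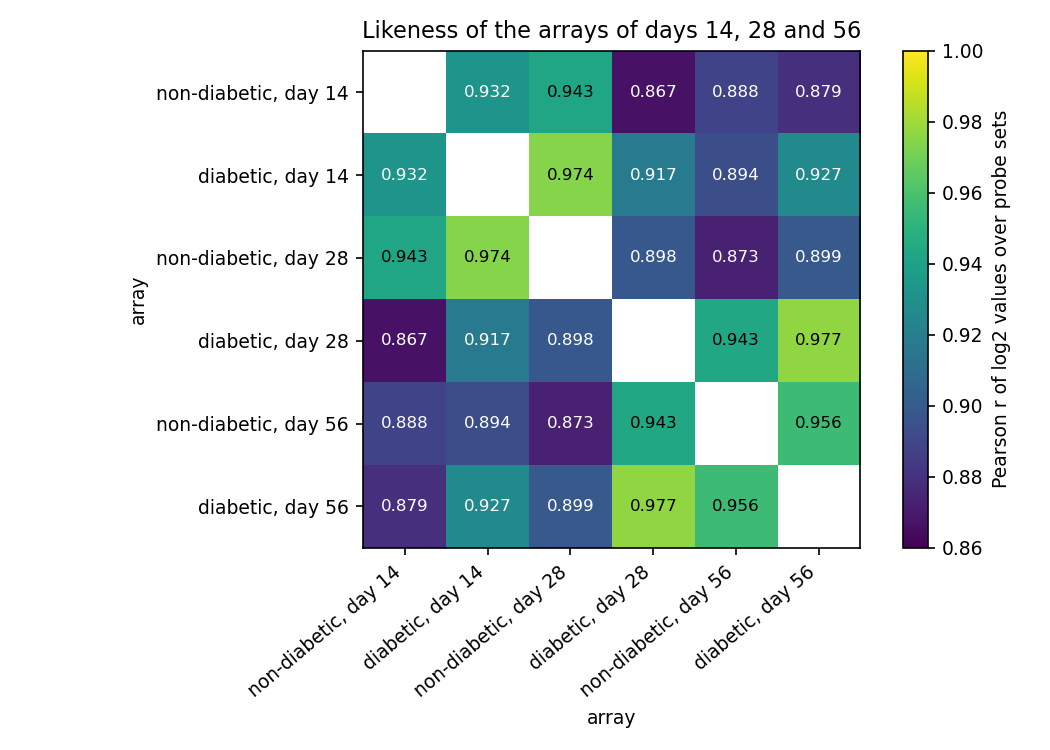
Pearson correlation of log2(intensity + 16) over probe sets between the 6 arrays of days 14, 28 and 56, with the treatment and day of each array on both axes and the coefficient in each cell. The diabetic day 28 array is most like the diabetic day 56 array at 0.977, and the non-diabetic day 28 array most like the diabetic day 14 array at 0.974.

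The lists of macrophage, MHC class II, collagen and cell division genes had median differences (day 56 minus day 14) below 0 in both treatments. Titin, the ryanodine receptor and Vegfa had higher values at day 56 in both. In the limma fit to all 12 arrays, however, no difference passed. Of 18625 probe sets, 0 (0%) had an adjusted p under 0.05, and the smallest was 0.0784. At an unadjusted p under 0.05 there were 1835 higher (9.85%) and 3221 lower (17.3%), and by gene 601 higher (5.66%) and 2457 lower (23.1%). The residual spread of that fit is the spread of the diabetic minus non-diabetic difference over the 6 time points, and the divided day 28 pair enters it. With the day 28 arrays left out, an alternative chosen after these values were seen, the differences stay as they are and 1071 probe sets were higher (5.75%) and 1922 lower (10.3%) past the threshold. By gene these are 297 higher (2.8%) and 1491 lower (14%). This second fit is called the 10-array fit below, and every adjusted p given without further words comes from it. After quantile normalization it had 1769 higher and 1868 lower probe sets, and with array medians set equal 1295 and 2206.

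A single array carried much of this count. Without the non-diabetic day 56 array the 10-array fit kept 80 higher and 33 lower probe sets, and without the non-diabetic day 14 array 321 and 807. Without the diabetic day 56 array it had 458 and 1035, and without the diabetic day 14 array 1405 and 1755. By gene, with the arrays left out in this order, 15, 65, 102 and 480 were higher and 26, 582, 810 and 1412 lower of 10623. A lone remaining array is assumed in these fits to vary like the other groups. For most lists below, the number past the threshold is followed by the share of measured members beside that of all genes, and 4 more numbers give the count with each of these arrays left out in the order of this paragraph (non-diabetic day 56, non-diabetic day 14, diabetic day 56, diabetic day 14).

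The median gene read lower at day 56, with a difference of -0.23 over the 10623 genes (-0.27 in non-diabetic and -0.17 in diabetic rats, and -0.15 after quantile normalization). Both treatments had the same sign for 7759 genes (73%) and opposite signs for 2864. Both day 56 arrays lay above both day 14 arrays for 1358 genes (12.8%) and below them for 4299 (40.5%). A difference of more than 1 on the log2 scale in both treatments was found for 67 higher genes (0.631%) and 349 lower genes (3.29%). The day 28 arrays, which the 10-array fit did not use, can be set beside its 1788 genes. For 1712 of them (95.7%) the non-diabetic day 28 level was nearer to the day 14 mean, against 75.3% of all genes. For 1599 (89.4%) the diabetic day 28 level was nearer to the day 56 mean, against 69.5% of all genes. Given the array correlations above, genes picked for a gap between the days were likely to show higher shares. The shares are therefore a description and no test of these genes.

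**Figure D2:**
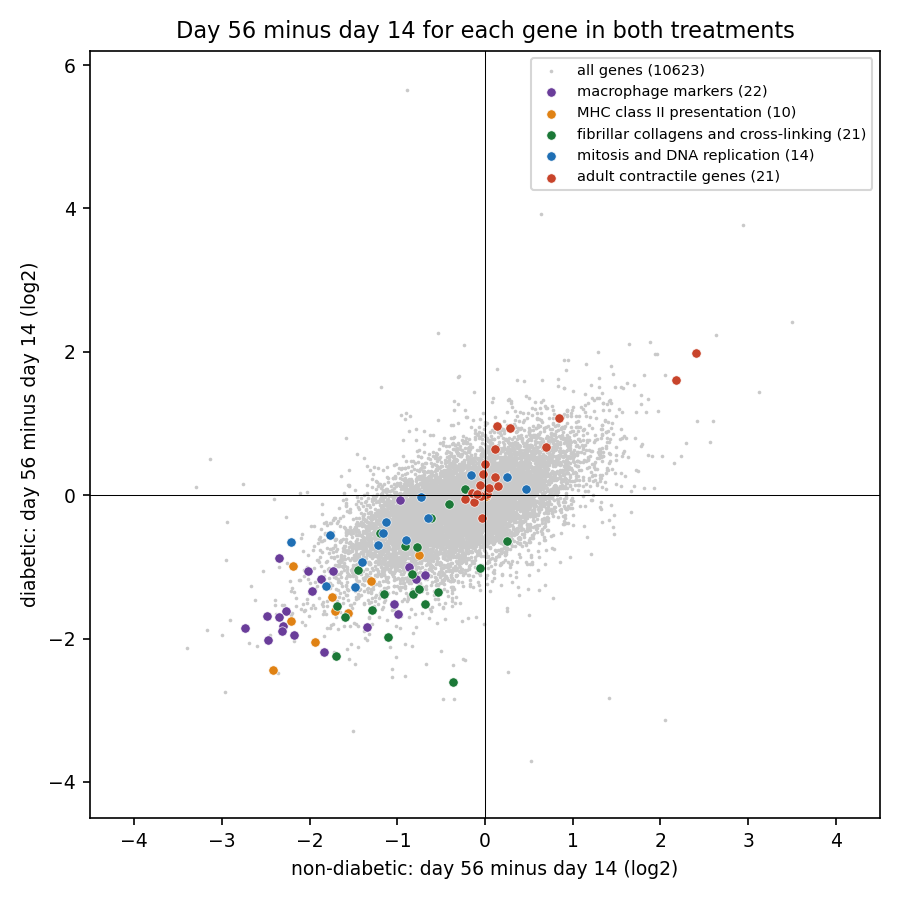
Each point is 1 of 10623 genes, with day 56 minus day 14 (log2) in the non-diabetic arrays on the horizontal axis and in the diabetic arrays on the vertical axis. Members of 5 gene lists are coloured: the 22 macrophage markers lie below 0 in both treatments, and the 2 contractile genes at the upper right are Ttn and Cmya5.

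Titin and the ryanodine receptor were among the 10 higher genes with the smallest p in all 12 arrays, none of which passed there (adjusted p 0.0784 for each). Ttn encodes titin, the giant spring protein of the sarcomere. It read 10.11 and 10.53 at day 14 and 12.52 and 12.52 at day 56, where the non-diabetic array is given first here and below. Both day 56 arrays lie far above both day 14 arrays and close to each other, a difference of 2.20 ± 0.45 (SE of the 12-array fit, n = 2 arrays per day) and an adjusted p of 0.000402. Ryr2, the channel that releases calcium from the sarcoplasmic reticulum, read 10.67 and 10.45 at day 14 and 11.88 and 11.81 at day 56, a difference of 1.29 ± 0.27. Akap6, a scaffold that holds protein kinase A at the nuclear envelope of muscle cells, read 5.83 and 6.09 at day 14 and 7.79 and 8.05 at day 56, a difference of 1.96 ± 0.39 that was nearly equal in the treatments (1.96 and 1.97). None of these 3 genes overlapped between the days, but they were picked by the p of this same difference.

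The gene with the largest positive difference of the whole comparison was Sv2b, a synaptic vesicle glycoprotein, at 7.75 and 8.02 at day 14 and 10.69 and 11.78 at day 56, which is 10.2-fold higher at day 56 (adjusted p 0.000402). The sham arrays read 10.01 and 10.97, which both day 14 arrays lay below, and each day 56 array lay above the sham array of its treatment. Vegfa, the main growth factor of endothelial cells, read 7.79 and 8.18 at day 14 and 10.43 and 10.41 at day 56, a difference of 2.43 ± 0.45 with an adjusted p of 0.000766. Its other probe set gave 1.76. The sham values of Vegfa were 9.35 and 9.24, which lie between those of the compared days. Clk1, a kinase of splicing factors, differed by 2.01 ± 0.41, Map3k20, a stress-activated kinase, by 1.53 ± 0.32, and Ccser2 by 1.53 ± 0.29. Dlgap3, a scaffold known from synapses, differed by 1.09 ± 0.20 and Atp2b2, a calcium pump of the plasma membrane, by 0.88 ± 0.19. All 10 had day 56 arrays above both day 14 arrays, as 12.8% of all genes did. Being picked by the p of this same difference, they were likely to.

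Among the 10 lower genes with the smallest p, 3 belong to innate immunity. Colec11, a soluble lectin that recognises sugars on microbes and dying cells, read 7.93 and 7.62 at day 14 and 4.97 and 4.88 at day 56, a difference of -2.85 ± 0.46 with an adjusted p of 0.000766. C1qb, a chain of the first complement component and a product of tissue macrophages, read 9.46 and 9.56 at day 14 and 6.97 and 7.87 at day 56 and differed by -2.09 ± 0.37. Il1b, the inflammatory cytokine interleukin 1 beta, read 5.71 and 6.29 at day 14 and 4.50 and 4.58 at day 56 and differed by -1.46 ± 0.27. In each of these the day 56 arrays lay below both day 14 arrays, as for 40.5% of all genes. These genes too were picked by the p of this same difference. Fcmr, the receptor for IgM, differed by -1.85 ± 0.31. Tcf19, a nuclear factor linked to cell division, differed by -2.67 in non-diabetic and -1.26 in diabetic rats, and Tubb2b, a beta tubulin, by -1.55 and -2.28. The other 4 were Ndn, a growth suppressor, at -1.81 ± 0.32, C1qtnf6, a secreted relative of C1q, at -1.33 ± 0.24, Dnph1, a nucleotide hydrolase, at -1.01 ± 0.18 and Wfdc1, a secreted inhibitor-like protein, at -2.42 ± 0.45. Adjusted p-values of these 20 genes were 0.000402 to 0.0117 in the 10-array fit.

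**Figure D3:**
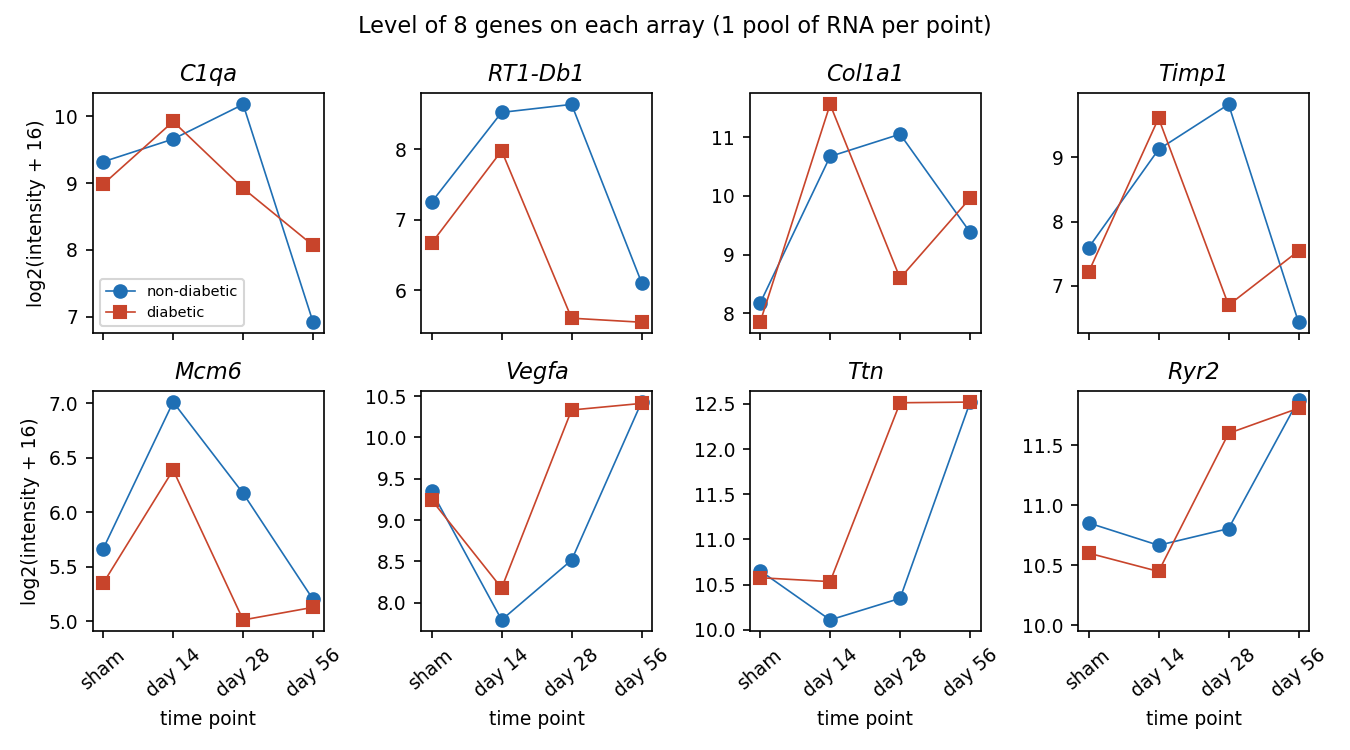
Level of 8 genes, as log2(intensity + 16), on the sham, day 14, day 28 and day 56 arrays, with blue circles for non-diabetic and red squares for diabetic rats and 1 pool of RNA per point. In all 8 panels, picked from the genes named in the text, the 2 day 56 values lie on one side of the 2 day 14 values. For Ttn the diabetic day 28 value (12.51) is at the day 56 level while the non-diabetic one (10.35) is not.

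Macrophage markers had the lowest median of the cell type lists. All 22 measured markers had lower values at day 56, with a median of -1.61 (-1.92 in non-diabetic and -1.62 in diabetic rats) beside -0.23 for all genes. In the 10-array fit 17 of 22 passed downward (77.3% beside 14% of all genes, and 2, 16, 16 and 15 with arrays left out in turn) and 0 upward. The day 56 arrays lay below both day 14 arrays for 20 of 22, where 40.5% of genes did. The mean level of the list was 7.88 and 8.26 at day 14 and 6.10 and 6.79 at day 56, and 7.71 and 7.50 on the sham arrays. The day 56 means were thus below the sham means too, lowest in the non-diabetic pool. Over all genes the mean was 6.90 and 7.11 at day 56 and 7.21 and 7.18 on the sham arrays.

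C1qa, another chain of C1q, read 9.66 and 9.92 at day 14 and 6.92 and 8.07 at day 56, a difference of -2.29 ± 0.43 or 4.91-fold (adjusted p 0.00297). C1qc read 9.37 and 9.74 at day 14 and 7.09 and 8.13 at day 56. The diabetic day 56 array was the higher of the day 56 pair for all 3 C1q chains. Cd14, the co-receptor for bacterial lipopolysaccharide, read 7.93 and 8.33 at day 14 and 5.75 and 6.38 at day 56, a difference of -2.07 ± 0.39.

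The MHC class II list, the genes by which macrophages and dendritic cells show antigen to helper T cells, had a median of -1.60. Of its 10 members 9 passed downward in the 10-array fit (90% beside 14% of all genes, and 2, 7, 8 and 8 in turn), and 0 passed upward. RT1-Db1, a class II beta chain of the rat, read 8.52 and 7.98 at day 14 and 6.11 and 5.55 at day 56, a difference of -2.42 ± 0.50 with an adjusted p of 0.000523, and the treatments differed little in it (-2.41 and -2.43). RT1-DMa and RT1-DMb, whose products help load peptides, differed by -1.99 ± 0.39 and -1.58 ± 0.36. RT1-Ba, a class II alpha chain, read 8.97 and 7.95 at day 14 and 7.26 and 6.34 at day 56. Both day 56 arrays were below both day 14 arrays for 8 of the 10, where 40.5% of all genes were.

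**Figure D4:**
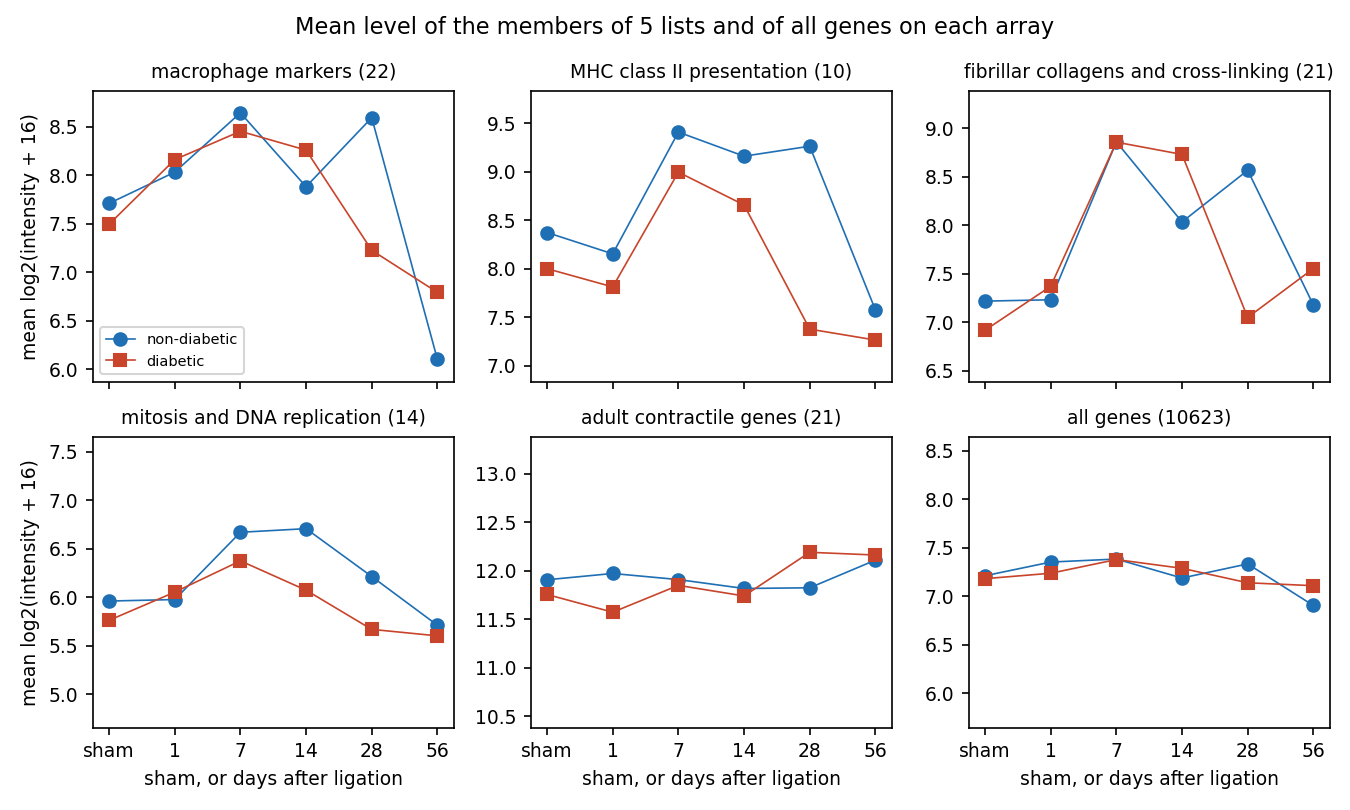
Mean log2(intensity + 16) over the measured members of 5 gene lists and over all genes on each of the 12 arrays, from sham through day 56, with blue circles for non-diabetic and red squares for diabetic rats. Macrophage and MHC class II means are lower at day 56 than at day 14 and lower than on the sham arrays. The day 28 pair is split most widely in the upper 3 panels. It is also apart for mitosis and DNA replication (6.21 and 5.67, non-diabetic first) and adult contractile genes (11.83 and 12.19).

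Lymphocyte markers followed, with all 11 measured genes below 0, a median of -0.99 and 7 past the threshold downward (63.6% beside 14% of all genes, and 1, 4, 3 and 4 in turn). Lck, a kinase of T cell receptor signalling, differed by -1.08 ± 0.24, Cd4 by -1.14 ± 0.28, Cd8a by -0.98 ± 0.27 and Cd3e by -0.99 ± 0.25. Cd4 and Cd8a mark the helper and killer classes of T cells, and Cd3e is part of the T cell receptor complex. Cd3e read 6.03 and 5.60 at day 14 and 5.49 and 4.15 at day 56, with the non-diabetic day 56 array close to the diabetic day 14 array.

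Of 14 complement genes 5 passed downward (35.7% beside 14% of all genes, and 0, 4, 6 and 5 in turn), of which the 3 C1q chains are also macrophage markers. C5ar1, the receptor for the chemoattractant C5a, read 8.01 and 7.97 at day 14 and 5.56 and 6.02 at day 56, a difference of -2.20 ± 0.52. Cfd, factor D of the alternative pathway and also an adipocyte marker, differed by -1.67 ± 0.47. Of 28 chemokine, cytokine and acute phase genes 7 passed downward (25% beside 14% of all genes, and 0, 8, 5 and 8 in turn) and 0 upward, with a median of -0.67. Lbp, which carries lipopolysaccharide to Cd14, differed by -1.50 ± 0.36, Ccl6, a macrophage chemokine, by -1.73 ± 0.47, and Slpi, an inhibitor of leukocyte proteases, by -2.33 ± 0.56. Slpi read 8.01 and 7.18 at day 14 and 5.10 and 5.44 at day 56, and both days lay above sham values of 4.50 and 4.81.

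In the interferon list 5 of 24 passed downward (20.8% beside 14% of all genes, and 0, 0, 1 and 10 in turn) and 22 of 24 lay below 0, as 7117 of all 10623 genes did, with a median of -0.73. Ifi27, an interferon-induced mitochondrial protein, read 11.60 and 11.30 at day 14 and 9.87 and 10.42 at day 56, a difference of -1.30 ± 0.27. The immunoproteasome subunits Psmb9 and Psmb8, which cut proteins into peptides for MHC class I, differed by -1.42 ± 0.34 and -1.32 ± 0.38, and Tap1, which carries those peptides into the endoplasmic reticulum, by -1.30 ± 0.33. Irf1, a transcription factor of this response, differed by -0.93 ± 0.30. The mean of this list was 7.26 and 7.05 at day 14, 6.47 and 6.32 at day 56 and 7.43 and 8.14 on the sham arrays.

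Only 4 neutrophil markers were measured, and 1 of them passed downward (25% beside 14% of all genes). This was Lcn2, an iron-trapping secreted protein, at -1.40 ± 0.45 (adjusted p 0.0488). The count is 0, 1, 0 and 1 with arrays left out in turn, and 0 after quantile normalization. S100a8 and S100a9, the abundant calcium-binding proteins of neutrophils, did not pass. S100a8 read 4.80 and 6.10 at day 14 and 4.66 and 4.82 at day 56. S100a9 read 4.95 and 7.51 at day 14 and 5.22 and 5.05 at day 56, and in both genes the non-diabetic pair differed little. Csf3r, the receptor for granulocyte colony-stimulating factor, differed by -0.42 ± 0.28. Of 5 mast cell markers 1 passed downward (20% beside 14% of all genes). This was Cma1, mast cell chymase, at -1.48 ± 0.36, with values of 6.14 and 5.60 at day 14 and 4.57 and 4.22 at day 56. The list's count is 0, 1, 1 and 2 in turn, and 0 after quantile normalization. Among markers of blood, 4 erythroid genes had a median of -0.53 and 0 passed in the 10-array fit or with any of the 4 arrays left out.

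Collagen and matrix genes formed the other large group of lower values. All 21 measured genes of fibrillar collagens and their cross-linking enzymes had lower values at day 56, with a median of -1.03 (-0.82 in non-diabetic and -1.31 in diabetic rats), and 15 of 21 passed downward in the 10-array fit (71.4% beside 14% of all genes, and 0, 12, 8 and 4 in turn). The list mean was 8.03 and 8.73 at day 14, 7.18 and 7.55 at day 56 and 7.22 and 6.92 on the sham arrays. The non-diabetic day 56 mean was close to its sham mean and the diabetic one was above it. For all genes the non-diabetic mean was 6.90 at day 56 and 7.21 on sham, and the diabetic mean 7.11 and 7.18. The non-diabetic day 56 array thus read lower as a whole.

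Col1a1, the major chain of type I collagen, read 10.67 and 11.56 at day 14 and 9.38 and 9.96 at day 56, a difference of -1.45 ± 0.60 with an adjusted p of 0.152 in the 12-array fit and 0.0136 in the 10-array fit. Its second probe set gave -2.44. Col3a1, the type III chain, read 11.90 and 12.51 at day 14 and 11.07 and 11.41 at day 56. Both day 56 values of each gene were below both day 14 values and above both sham values (8.17 and 7.85 for Col1a1, 10.61 and 10.08 for Col3a1). Col5a1, a regulator of collagen fibril diameter, had the smallest p of the list, with values of 9.15 and 9.75 at day 14 and 8.03 and 7.78 at day 56 and a difference of -1.54 ± 0.33. Pcolce, which helps trim procollagen, differed by -1.62 ± 0.53, Loxl3, an oxidase that cross-links collagen, by -0.81 ± 0.24, and Plod1, which hydroxylates collagen lysines, by -0.86 ± 0.28.

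Basement membrane genes passed downward at about the share of all genes. Their median was -0.57 over 15 genes, 3 of which lay above 0, with 2 past the threshold downward (13.3% beside 14% of all genes, and 0, 1, 0 and 0 in turn) and 1 upward (6.67% beside 2.8% of all genes, and 0, 0, 0 and 0). Lamb2, the laminin beta 2 chain, was the gene past it upward, at 9.58 and 9.70 at day 14 and 10.11 and 10.92 at day 56 and a difference of 0.88 ± 0.36. Col8a1, a short-chain collagen, differed by -1.46 ± 0.59, Nid1, which links laminin to type IV collagen, by -0.87 ± 0.36 and its relative Nid2 by -0.79 ± 0.31.

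Matricellular proteins, secreted proteins that steer cells rather than bear load, varied more between the pools. Their median was -1.02 over 15 genes, and 3 passed downward (20% beside 14% of all genes, and 0, 2, 0 and 0 in turn). Postn, periostin of activated fibroblasts, read 7.40 and 10.83 at day 14 and 5.89 and 7.55 at day 56, a difference of -1.50 in non-diabetic and -3.28 in diabetic rats. The non-diabetic day 14 array was just below the diabetic day 56 array. Cthrc1, a secreted protein of collagen-producing fibroblasts, read 5.06 and 7.89 at day 14 and 4.00 and 5.35 at day 56. Its difference was larger in the diabetic pair. The non-diabetic day 56 value lies at the floor of the scale, so a larger fall could not be read in that pair. Tnc, tenascin C, differed by -1.02 ± 0.54 and did not pass (adjusted p 0.0689). Smoc2, a calcium-binding matrix protein, differed by -1.13 ± 0.48 (adjusted p 0.0413). Spp1, osteopontin of macrophages and myofibroblasts, read 8.04 and 7.87 at day 14 and 4.75 and 7.98 at day 56, and only the non-diabetic pair was lower.

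Small proteoglycans and elastic fibre genes had a median of -0.98 over 21 genes, with 9 past the threshold downward (42.9% beside 14% of all genes, and 0, 6, 11 and 4 in turn) and 0 upward. Mfap5, a microfibril glycoprotein, read 10.38 and 10.78 at day 14 and 8.19 and 9.02 at day 56, a difference of -1.98 ± 0.66, beside sham values of 8.94 and 8.56. Eln, elastin, read 8.37 and 9.13 at day 14 and 7.35 and 7.31 at day 56. Mfap2, another microfibril protein, differed by -0.98 ± 0.33 and Efemp2, which helps assemble elastic fibres, by -1.14 ± 0.41. All 4 genes had both day 56 arrays below both day 14 arrays, as 40.5% of all genes did. They were picked from the list by the p of this same difference.

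Of 17 matrix proteases and inhibitors 7 passed downward (41.2% beside 14% of all genes, and 0, 4, 6 and 3 in turn), with a median of -0.81. Timp1, the inducible inhibitor of metalloproteinases, read 9.12 and 9.61 at day 14 and 6.43 and 7.55 at day 56, a difference of -2.38 ± 0.76 or 5.19-fold with an adjusted p of 0.00302. Its relative Timp2 differed by -0.95 ± 0.31. Among the proteases, Mmp14, the membrane-bound enzyme that activates gelatinase, differed by -1.11 ± 0.35 and Mmp23 by -1.58 ± 0.45. Of the 17 genes 3 lay above 0.

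The fibroblast markers had a median of -0.72 over 16 genes, and 7 passed downward (43.8% beside 14% of all genes, and 0, 4, 4 and 4 in turn). Thy1, a surface protein of fibroblasts, read 6.66 and 6.45 at day 14 and 4.46 and 5.16 at day 56, a difference of -1.75 ± 0.43. Tcf21, a transcription factor of resident cardiac fibroblasts, differed by -1.37 ± 0.34, Mest, an imprinted gene of mesenchymal cells, by -1.22 ± 0.30 and Lsp1, an actin-binding protein also found in leukocytes, by -1.37 ± 0.45. The TGF-beta and activin list, a pathway known to drive myofibroblast formation, was close to all genes in its count: 3 of 20 passed downward (15% beside 14% of all genes, and 0, 0, 2 and 3 in turn) with a median of -0.59. Scx, a transcription factor of matrix-forming cells, differed by -1.16 ± 0.42, Fstl3, a binding protein of activin, by -1.20 ± 0.44 and Smad6, an inhibitor of the pathway, by -0.76 ± 0.22. Bmp4 differed by -0.81 ± 0.32 and did not pass (adjusted p 0.0631). Mesothelial and epicardial markers, from the outer lining of the heart, had 4 of 7 past the threshold downward (57.1% beside 14% of all genes, and 0, 1, 1 and 3 in turn), among them Aldh1a2, which makes retinoic acid, at -1.42 ± 0.28 and Msln, mesothelin, at -1.25 ± 0.38.

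**Figure D5:**
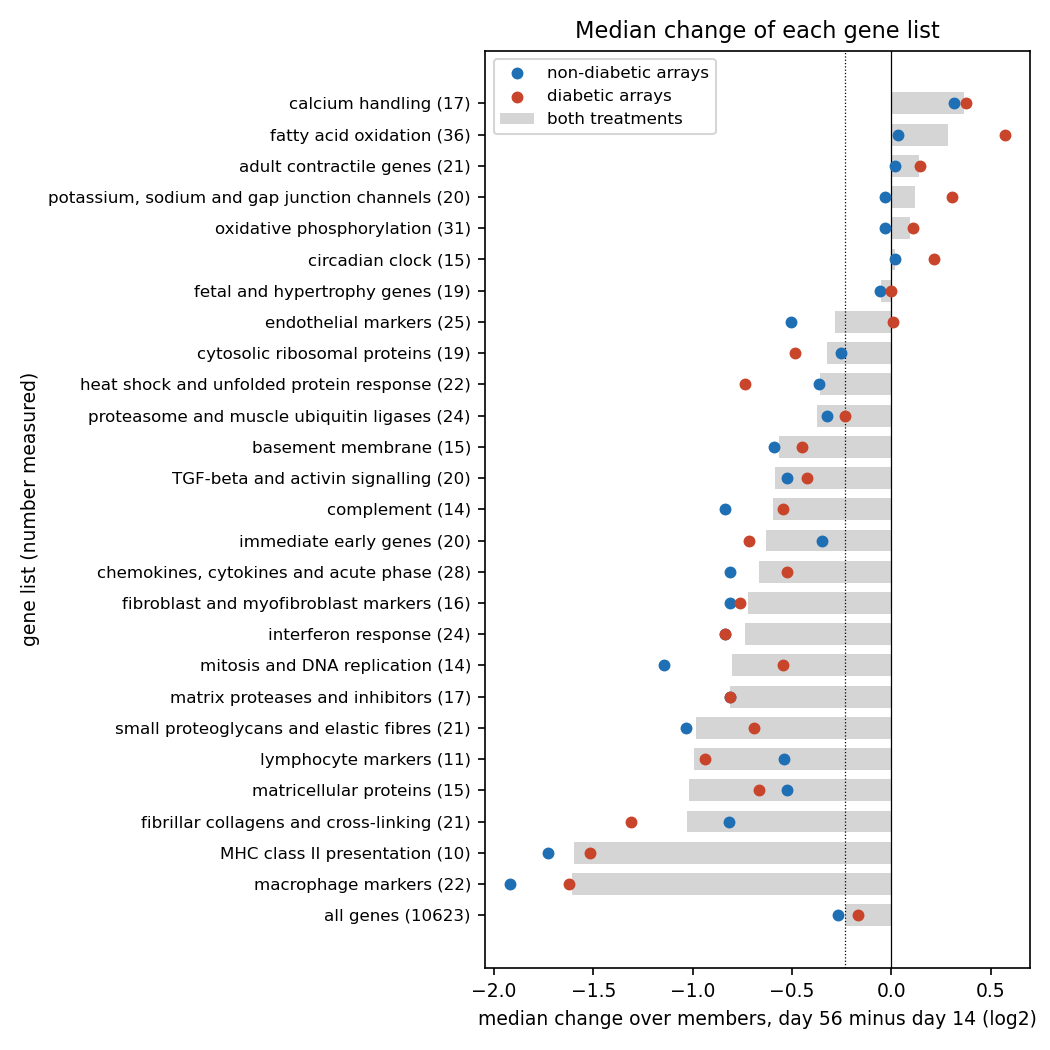
Median of day 56 minus day 14 (log2) over the measured members of 26 gene lists and over all genes, with grey bars for both treatments together, blue points for the non-diabetic and red points for the diabetic arrays. The dotted line is the median of all genes at -0.23. Macrophage and MHC class II lists have the lowest medians, at -1.61 and -1.60, and calcium handling the highest, at 0.36.

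Most measured genes of DNA replication and mitosis had lower values at day 56. Of 34 listed genes 14 were above the filter, their median was -0.80 (-1.15 in non-diabetic and -0.54 in diabetic rats), and 8 passed downward in the 10-array fit (57.1% beside 14% of all genes, and 0, 1, 2 and 9 in turn). Mcm6, a subunit of the helicase that opens DNA at replication origins, read 7.01 and 6.39 at day 14 and 5.20 and 5.13 at day 56, a difference of -1.54 ± 0.33 with an adjusted p of 0.00528. Mcm3 and Mcm5, subunits of the same helicase, differed by -1.17 ± 0.22 and -0.95 ± 0.23. Ube2c, which marks mitotic proteins for destruction, read 6.79 and 5.33 at day 14 and 5.31 and 4.05 at day 56 and differed by -1.38 ± 0.33. The day 56 arrays lay below both day 14 arrays for 11 of 14 genes, where 40.5% of all genes did so.

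The promoters of replication genes commonly hold sites for E2F factors, which turn these genes on before DNA synthesis. The 250 bases before the start site were searched on both strands for the core TTTNGCGC in the RefSeq promoters of rat build GRCr8. Each list gene counts once. The share over all promoters takes in every entry, also of genes not measured here, and may count a gene more than once. Of the 12 list members with an entry 4 held the core (Cdk1, Mcm2, Mcm5 and Mcm6), against 1.04% of 33469 promoters. Mcm5 and Mcm6, the helicase subunits of that set named above, are shown 5' to 3' with the match in capitals, where matches on the 2 strands overlap. Cdk1, the kinase that drives entry into mitosis, differed by -1.43 ± 0.39 and Mcm2 by -1.16 ± 0.30, and both are named here for the match. A match is a description of the letters and not a proven site.
Mcm5 promoter, chr19:13488563-13488812, plus strand: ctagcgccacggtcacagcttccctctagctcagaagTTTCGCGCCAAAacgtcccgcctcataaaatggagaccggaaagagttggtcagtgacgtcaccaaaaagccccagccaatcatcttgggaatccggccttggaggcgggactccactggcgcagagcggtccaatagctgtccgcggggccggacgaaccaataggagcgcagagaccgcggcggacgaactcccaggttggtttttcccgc
Mcm6 promoter, chr13:42404353-42404602, minus strand: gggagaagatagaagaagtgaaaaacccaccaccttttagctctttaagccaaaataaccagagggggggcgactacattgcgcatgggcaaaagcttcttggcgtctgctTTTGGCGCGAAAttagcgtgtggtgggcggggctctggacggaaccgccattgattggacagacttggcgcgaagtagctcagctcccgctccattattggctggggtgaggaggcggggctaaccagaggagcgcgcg

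Among chaperones of the secretory pathway, which fold collagen and other secreted proteins, the count past the threshold rested on single arrays. In the list of heat shock and unfolded protein response genes 5 of 22 passed downward (22.7% beside 14% of all genes, and 0, 6, 0 and 0 in turn) and 0 upward, with a median of -0.36 beside -0.23 for all genes. Sdf2l1, a partner of the chaperone BiP, read 8.43 and 8.66 at day 14 and 7.42 and 6.40 at day 56, a difference of -1.01 in non-diabetic and -2.26 in diabetic rats. Creld2, a stress-induced protein of the endoplasmic reticulum, read 7.26 and 8.03 at day 14 and 6.31 and 6.54 at day 56, a difference of -1.21 ± 0.42. Calr, calreticulin, a calcium-binding chaperone, read 10.51 and 11.00 at day 14 and 9.82 and 9.92 at day 56, a difference of -0.89 ± 0.31. Dnajb1, a cytosolic partner of the Hsp70 chaperones, differed by -1.15 ± 0.36, and Manf, a secreted stress protein, by -0.96 ± 0.38. Without the diabetic day 14 array 2 genes of the list passed upward.

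The element to which the stress factors ATF6 and NF-Y bind, spelled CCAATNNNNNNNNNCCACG, was searched in the same windows on both strands. Of 20 list members with an entry 5 held it (Hspa5, Hsp90b1, Xbp1, Calr and Creld2), against 0.0657% of all promoters, counted as for the E2F core. Calr and Creld2, which passed in the 10-array fit, are shown with the match in capitals, which lies on the opposite strand in both. Holding the element did not go with one direction: Hspa5, which encodes BiP, differed by 0.49 in non-diabetic and -0.76 in diabetic rats, and Hsp90b1, its partner chaperone, by 1.20 and -0.83. Xbp1, a transcription factor of the response, differed by -0.83 ± 0.32 (adjusted p 0.0591).
Calr promoter, chr19:40213117-40213366, plus strand: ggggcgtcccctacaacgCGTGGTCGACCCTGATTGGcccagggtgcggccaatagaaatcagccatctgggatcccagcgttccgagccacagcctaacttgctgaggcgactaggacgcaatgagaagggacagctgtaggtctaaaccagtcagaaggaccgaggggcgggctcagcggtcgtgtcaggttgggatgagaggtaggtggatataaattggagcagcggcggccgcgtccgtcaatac
Creld2 promoter, chr7:121789134-121789383, plus strand: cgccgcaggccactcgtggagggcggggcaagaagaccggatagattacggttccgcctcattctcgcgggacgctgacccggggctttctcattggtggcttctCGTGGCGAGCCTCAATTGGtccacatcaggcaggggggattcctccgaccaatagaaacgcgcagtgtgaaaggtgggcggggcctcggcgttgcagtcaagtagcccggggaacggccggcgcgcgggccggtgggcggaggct

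Ribosomal protein genes had a median of -0.32 over 19 genes, with 7 past the threshold downward (36.8% beside 14% of all genes, and 0, 3, 2 and 4 in turn). Rps3, of the small subunit, read 11.79 and 11.94 at day 14 and 10.69 and 11.17 at day 56, a difference of -0.94 ± 0.23, and Rpl18, of the large subunit, read 11.85 and 11.89 at day 14 and 11.02 and 11.10 at day 56. Both were below their sham values at day 56. Of 24 proteasome and ubiquitin ligase genes 5 passed downward (20.8% beside 14% of all genes, and 0, 0, 3 and 5 in turn), with Psmb4 at -0.74 ± 0.23 and Psmb1 at -0.74 ± 0.23, both subunits of the proteolytic core. Both lists had medians near that of all genes.

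Immediate early genes, which respond within minutes to stretch, hypoxia and growth factors, had a median of -0.63 over 20 genes, and 6 passed downward (30% beside 14% of all genes, and 0, 4, 1 and 3 in turn). Maff, a small partner of stress-response factors, read 7.26 and 7.24 at day 14 and 5.68 and 6.08 at day 56, a difference of -1.37 ± 0.28. Ier3 differed by -1.09 ± 0.30 and Ier2 by -0.94 ± 0.26. Klf2, a transcription factor of quiescent endothelium induced by flow, read 10.16 and 9.81 at day 14 and 9.68 and 8.25 at day 56, where the non-diabetic day 56 array was only just below the diabetic day 14 array. Antioxidant and metallothionein genes passed downward at about the share of all genes, 3 of 21 (14.3% beside 14%), and 1 passed upward (4.76% beside 2.8%). Srxn1, which repairs oxidised peroxiredoxins, read 6.63 and 6.58 at day 14 and 4.98 and 5.94 at day 56, a difference of -1.15 ± 0.26. Sterol and fatty acid synthesis genes were also near that share downward, with 2 of 14 (14.3% beside 14%), and 1 passed upward (7.14% beside 2.8%). Fasn, fatty acid synthase, differed by -1.24 ± 0.27, Dhcr7, the last enzyme of cholesterol synthesis, by -0.68 ± 0.19, and Insig1, which restrains sterol synthesis, by 0.98 ± 0.34.

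Genes of the cardiomyocyte itself went the other way in a minority of cases. Of 21 adult contractile genes 4 passed upward (19% beside 2.8% of all genes, and 1, 2, 2 and 4 in turn) and 0 downward in the 10-array fit, with a median of 0.14. Besides Ttn these were Cmya5 (myospryn, a large anchor protein of the Z-disc), Myom1 and Myom2, which cross-link thick filaments at the M-band. Cmya5 read 8.56 and 9.13 at day 14 and 10.74 and 10.74 at day 56, a difference of 1.89 ± 0.44 or 3.72-fold. Myom1 read 9.80 and 9.58 at day 14 and 10.64 and 10.66 at day 56, a difference of 0.96 ± 0.28, and Myom2 differed by 0.68 ± 0.24.

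Probe sets of one gene disagreed here. The brightest probe sets of Myh6 and Myh7, the alpha and beta myosin heavy chains, gave 0.18 and 0.34, and that of Myl2, the ventricular light chain, gave -0.11. Their second probe sets gave 1.45, 2.05 and 1.76. The second Myh7 probe set read 9.79 and 10.79 at day 14 and 12.22 and 12.47 at day 56, but 5.94 to 6.43 on the day 1 and day 7 arrays, where the actin 3' to 5' difference was largest. The brightest one read 12.25 and 12.87 at day 14 and 12.80 and 12.99 at day 56. Which of these probe sets follows the transcript was not tested.

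Calcium handling had a median of 0.36 over 17 genes, the highest of the lists shown, with 3 past the threshold upward (17.6% beside 2.8% of all genes, and 0, 1, 2 and 4 in turn) and 0 downward. Besides Ryr2 these were Cacna2d1, an accessory subunit of the L-type calcium channel, and Slc8a1, the sodium-calcium exchanger. Cacna2d1 read 6.19 and 6.76 at day 14 and 7.60 and 7.78 at day 56, a difference of 1.21 ± 0.37, and Slc8a1 read 8.62 and 9.30 at day 14 and 9.74 and 9.94 at day 56, a difference of 0.88 ± 0.28. Atp2a2, the calcium pump of the sarcoplasmic reticulum, differed by 0.21 ± 0.16 and did not pass (adjusted p 0.273). S100a1, a calcium-binding protein that acts on that pump, differed by -0.71 ± 0.29 and did not pass either.

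Of 20 potassium, sodium and gap junction channel genes 4 passed upward (20% beside 2.8% of all genes, and 0, 2, 2 and 3 in turn) and 0 downward. Kcnd3, a pore subunit of the transient outward potassium current, read 4.86 and 5.11 at day 14 and 6.24 and 5.99 at day 56, a difference of 1.13 ± 0.29. Kcnj3, a G-protein-gated potassium channel, differed by 0.91 ± 0.30, Scn7a, a sodium channel relative, by 0.84 ± 0.29, and Hcn4, the pacemaker channel, by 0.65 ± 0.25. For Kcnj3 and Hcn4 the day 56 values, at 6.39 and 6.50 and at 6.39 and 6.31, were also above sham.

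In the fetal and hypertrophy list 0 of 19 genes passed upward (0% beside 2.8% of all genes, and 0, 0, 0 and 1 in turn) and 0 downward (0% beside 14% of all genes, and 0, 0, 0 and 0) in the 10-array fit. Its median was -0.05, which turned to 0.02 after quantile normalization. Nppa, atrial natriuretic peptide, read 12.53 and 12.82 at day 14 and 11.89 and 12.80 at day 56, and the sham arrays read 11.13 and 12.49. Nppb, B-type natriuretic peptide, read 12.01 and 11.91 at day 14 and 11.85 and 11.57 at day 56, a difference of -0.26 ± 0.21. Acta1, skeletal alpha-actin, read 12.43 and 12.48 at day 14 and 12.46 and 12.11 at day 56. The days overlapped in Nppa and Acta1, and in Nppb the day 56 pair was just below the day 14 pair.

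Fatty acid oxidation genes had a higher median in the diabetic than in the non-diabetic pair, a difference that was not tested. Over 36 genes the median was 0.28, with 0.03 in non-diabetic and 0.57 in diabetic rats, and 5 passed upward (13.9% beside 2.8% of all genes, and 0, 0, 0 and 5 in turn) and 0 downward. Acadl, a dehydrogenase of long chain fatty acids, differed by 0.68 ± 0.21, and Acadm, that of medium chain ones, read 10.71 and 11.06 at day 14 and 11.30 and 12.14 at day 56. Etfdh, which passes their electrons to ubiquinone, read 9.03 and 9.73 at day 14 and 9.92 and 10.61 at day 56, a difference of 0.89 ± 0.29 that was nearly equal in the treatments (0.89 and 0.88). Ppargc1a, the coactivator that drives mitochondrial genes, read 6.58 and 7.06 at day 14 and 7.87 and 8.56 at day 56, a difference of 1.40 ± 0.50 with an adjusted p of 0.0152. Acacb, which makes the malonyl-CoA that restrains fatty acid entry into mitochondria, differed by 0.82 ± 0.42. Diabetic arrays were the higher of each pair for Acadl, Acadm, Etfdh and Ppargc1a on both days. After quantile normalization 11 of 36 passed upward (30.6% beside 5.8% of all genes).

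Of 29 genes of glucose use 3 passed upward (10.3% beside 2.8% of all genes, and 0, 0, 1 and 4 in turn) and 1 downward (3.45% beside 14% of all genes, and 0, 0, 1 and 1), Pfkp, the platelet form of phosphofructokinase, at -1.16 ± 0.46. Pdha1, a subunit of pyruvate dehydrogenase, differed by 0.69 ± 0.24, and Pdk1, a kinase that inhibits it, by 1.23 ± 0.44. Txnip, a glucose-induced brake on glucose uptake, read 9.65 and 11.50 at day 14 and 11.21 and 12.05 at day 56, a difference of 1.56 in non-diabetic and 0.55 in diabetic rats. Pdk4, another kinase of pyruvate dehydrogenase, read 7.27 and 10.70 at day 14 and 8.83 and 11.85 at day 56, and the treatment separated these values more than the day did. Its difference of 1.36 ± 0.63 did not pass (adjusted p 0.126). Slc2a4, the insulin-responsive glucose transporter, differed by -0.25 ± 0.39 and Ucp3, a mitochondrial carrier, by 0.20 ± 0.38, and neither passed.

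In oxidative phosphorylation the members did not move as one. Of 31 genes 0 passed upward (0% beside 2.8% of all genes, and 0, 0, 0 and 5 in turn) and 1 downward (3.23% beside 14% of all genes, and 0, 0, 0 and 2 in turn), and the median was 0.09. Cox5a, a subunit of cytochrome c oxidase, passed downward at -0.84 ± 0.25. Its probe set read 8.12 and 7.52 at day 14 and 6.94 and 7.02 at day 56. On the day 1 and day 7 arrays, where the actin 3' to 5' difference was largest, it read 9.65 to 10.21. Whether this probe set follows the transcript was not tested. Cox7a1, a muscle subunit of the same oxidase, differed by -0.98 ± 0.36 (adjusted p 0.0558). Uqcrc2, a core protein of complex III, differed by 0.52 ± 0.19 and Sdha, of complex II, by 0.60 ± 0.23, neither of which passed. After quantile normalization 4 passed upward (12.9% beside 5.8% of all genes).

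Of 25 endothelial markers 1, Vegfa, passed upward (4% beside 2.8% of all genes, and 1, 1, 1 and 3 in turn), and 1, Lyve1, downward (4% beside 14% of all genes, and 0, 1, 1 and 2). After quantile normalization, and with array medians set equal, 3 passed upward (12% beside 5.8% and 3.69% of all genes). Vegfa is in this list as a growth factor of endothelial cells rather than a marker of them. Lyve1 is a receptor of lymphatic endothelium and of tissue macrophages. Lyve1 read 8.14 and 9.63 at day 14 and 7.10 and 8.11 at day 56, a difference of -1.28 ± 0.43. Cd36, a fatty acid receptor of capillaries and muscle, read 9.86 and 11.44 at day 14 and 11.29 and 11.92 at day 56, a difference of 0.95 ± 0.34, and Apln, the peptide apelin, differed by -0.76 ± 0.28, and neither passed. The list median of -0.28 lay near that of all genes.

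Of 15 clock genes 2 passed upward (13.3% beside 2.8% of all genes, and 0, 2, 2 and 2 in turn). Hlf, a clock-controlled transcription factor, read 5.23 and 4.70 at day 14 and 7.01 and 6.09 at day 56, a difference of 1.59 ± 0.35, and Per3, a period gene, read 5.55 and 4.71 at day 14 and 7.37 and 6.39 at day 56, a difference of 1.75 ± 0.53. Nr1d2, a repressor of the clock, differed by 1.38 ± 0.51 (adjusted p 0.0589). The sources used here do not give the hour at which tissue was taken. Of 12 glucocorticoid-responsive genes 1 passed upward (8.33% beside 2.8% of all genes) and 1 downward (8.33% beside 14%). Klf9, a transcription factor induced by glucocorticoids, differed by 1.79 in non-diabetic and 0.72 in diabetic rats. Of 6 Schwann cell and nerve genes 2 passed downward (33.3% beside 14% of all genes, and 0, 0, 2 and 1 in turn), among them Dbh, which makes noradrenaline, at -0.93 ± 0.23, and Npy, a peptide of sympathetic nerves, read 8.02 and 8.57 at day 14 and 7.10 and 6.05 at day 56 and did not pass.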

How the data were processed

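The authors deposited 1 linear intensity per probe set and array, made with Affymetrix Expression Console and PLIER per the submitters' processing notes; the sources used here name no version or normalization setting. Each intensity comes from 1 pool of 3 rats, per the labels. With 1 array per treatment and time point, the spread between pools of the same condition could not be measured. The p-values rest instead on how unequal the gap between the treatments was from one time point to another. Pool noise and any real treatment effect that depends on time both enter that spread and cannot be separated. Of 31099 probe sets 57 controls were removed, and those with a mean log2(intensity + 16) above the 40th percentile were kept (18625, of which 14310 have 1 gene symbol). Without a symbol were 485 of the 1071 higher and 201 of the 1922 lower probe sets of the fit without day 28. limma 3.58.1 in R 4.3.3 fitted the time point (6 levels) and treatment to 12 arrays with 5 residual degrees of freedom (10 arrays and 4 without day 28), moderated variances with trend, and Benjamini-Hochberg adjustment over all probe sets at 0.05. Errors are standard errors of the 12-array fit. Precision is limited by how few arrays there are. The scripts were tested on simulated data. The members and lists were chosen with earlier results of these data known. Named are the 10 genes each way with the smallest p and 1 sign in both treatments, up to 4 per list by p, 16 looked up in any case, 5 each way with opposite signs, and others where said or where they complete a short count (Cfd, Irf1, Manf, Acacb, Hspa5, Hsp90b1, Xbp1, Mcm2, Cdk1), chosen after their values were seen. Promoter sequences are RefSeq's of GRCr8.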

Additional observations from a re-analysis of the deposited data

Results flagged for a closer look

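For 13 genes of the report the non-diabetic and the diabetic pair of arrays went opposite ways between day 14 and day 56. Each pair holds 1 array per day, so the difference between the treatments was not tested, and no explanation was weighed. The 5 genes each way with the largest such difference are among them. Fam111a, an antiviral protease, stands first, with diabetic minus non-diabetic at 6.55. It read 5.51 and 5.24 at day 14 and 4.61 and 10.90 at day 56, so 1 array of the 4 is high. Over all 12 arrays its level ran from 4.27 to 10.90, with the sham arrays at 9.46 and 10.23.

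Myl7, the atrial light chain, gave 3.64, with 8.88 and 7.38 at day 14 and 5.75 and 7.89 at day 56, and the low array is the non-diabetic day 56 one. Spp1, osteopontin, gave 3.40. Sncg, gamma-synuclein, gave 2.93, with 7.20 and 6.54 at day 14 and 4.44 and 6.70 at day 56, where again the non-diabetic day 56 array is low. Zfp827, a zinc finger protein, gave 2.80, with 7.70 and 4.78 at day 14 and 7.16 and 7.04 at day 56, where the diabetic day 14 array is low.

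In the other direction Pxmp4, a peroxisomal membrane protein, gave -5.18, with 5.73 and 7.96 at day 14 and 7.78 and 4.83 at day 56. RT1-CE16, an MHC class I gene whose probe set may read related class I genes, gave -4.24, with 6.77 and 8.84 at day 14 and 8.18 and 6.02 at day 56. Gzmb, granzyme B of killer lymphocytes, gave -4.23, with 5.42 and 9.06 at day 14 and 5.94 and 5.35 at day 56, where the diabetic day 14 array is high and the sham arrays read 9.57 and 9.28. S100a9 gave -2.73 and Cpa6, a carboxypeptidase, -2.21. The chaperone genes Hsp90b1 and Hspa5 gave -2.03 and -1.25, and Acta1 gave -0.40, the smallest of the 13.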

How the results depend on the processing

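Over all 12 arrays 0 probe sets were past the threshold with 5056 at an unadjusted p under 0.05 (limma), and 0 also with an offset of 1 or 64, no filter on low values, a filter at the 60th percentile, quantile normalization, equal array medians, no treatment term, no trend or robust moderation, where the unadjusted count was 3575 to 7065. It was 0 as well without the sham arrays, the day 1 arrays, the day 7 arrays, or days 1 and 7 together. Leaving out the day 28 arrays gave 2993, leaving out only the diabetic one 2989, only the non-diabetic one 3004, and both with quantile normalization 3637 or equal medians 3501. The 4 arrays alone gave 3941, with 1 residual degree of freedom. With 1 array of the compared days left out in turn, from 12 or 10 arrays, the counts were 0 to 3160, and at an unadjusted p 1810 to 6560. The cause was not tested. Setting day 28 and day 56 together against day 14 gave 0 calls and turned S100a9 to 0.49, S100a8 to 0.38, Pxmp4 to 0.00073 and Cpa6 to 0.32.

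Over 29 alternatives, 138 of 154 genes named kept their direction and 119 were past the threshold without day 28. Many alternatives change only the other arrays, the filter, the treatment term or the variance moderation. In these the difference of a gene cannot change, so its direction was not put to a test there. With 1 array of the compared days left out (from 12 or 10 arrays), these turned, with day 56 minus day 14 (log2) spanning Ucp3 -0.41 to 0.81, Hsp90b1 -0.87 to 1.25, S100a9 -2.64 to 0.44, S100a8 -1.43 to 0.014, Pxmp4 -2.19 to 1.11, RT1-CE16 -2.23 to 0.82, Gzmb -3.86 to 0.68, Cpa6 -1.05 to 0.39. The others spanned Zfp827 -0.47 to 2.18, Hspa5 -0.90 to 0.63, Spp1 -3.24 to 0.056, Acta1 -0.41 to 0.065, Fam111a -1.16 to 5.92, Nppa -0.68 to 0.016, Myl7 -2.64 to 0.017 and Myh6 -0.011 to 0.37. Of 754 list medians 161 moved and 13 changed sign. Averaging probe sets of a gene gave 0 genes past the threshold and was not carried through. No paired analysis was possible because each group has 1 array and the labels carry no replicate numbers; the treatment term is in the fit. Signal over background is unknown for the deposited values, so dim genes rest on the filter alone.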

Other observations

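A few lists not described above gave 0 or 1 call in the fit without day 28. Of all genes 2.8% passed upward and 14% downward in that fit. After quantile normalization 5.8% of all genes passed upward. Of 15 smooth muscle and pericyte markers 0 passed, with a median of -0.14, and of 8 atrial markers 0 passed, with a median of -0.20. Of 5 skeletal muscle markers 0 passed, with a median of 0.07, but 2 passed upward after quantile normalization. Of 7 adipocyte markers 1 passed downward (Cfd, at -1.67 ± 0.47), and 0, 0, 1 and 1 without the non-diabetic day 56, non-diabetic day 14, diabetic day 56 and diabetic day 14 arrays in turn. Beside 3506 of all 10623 genes, 16 of 17 citric acid cycle and ketone use genes read higher at day 56, with a median of 0.26. Of these 1 passed upward (0, 0, 0 and 1 in the same order, and 3 after quantile normalization).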
